A study of Mus musculus with 6 samples.

Results

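RNA of *Gfi1*, *Evi5* and *Gfi1b* was described in CD8+ T cells cultured with the LSD1 inhibitor GSK2879552 (GSK) or with vehicle (Veh). The 3 genes were picked by symbol from the 16281 genes of the deposited count table, with their difference between GSK and Veh already known. Their GSK against Veh values are therefore given as a description, without a test. In GSK samples, *Gfi1* RNA was 2.52 times and *Evi5* RNA 2.56 times the Veh mean, and *Gfi1b* was at or near 0 in all samples. The filter on low counts in edgeR kept 11698 genes, among them *Gfi1* and *Evi5* but not *Gfi1b*.

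GFI1 is a zinc finger transcriptional repressor. Its N-terminal SNAG domain binds LSD1 and CoREST in the way the tail of histone H3 does, and through them brings histone deacetylases to its sites. It restrains inflammatory programs in T cells and myeloid cells, is needed for granulocyte development, and is known to repress its own promoter. GFI1B is its close paralog and acts mainly in erythroid cells and megakaryocytes. EVI5 is an unrelated protein encoded next to GFI1. It carries a TBC domain, the fold of GTPase-activating proteins for Rab GTPases, binds RAB11, and stabilises EMI1, an inhibitor of the anaphase-promoting complex.

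The cells came from spleens of OT1 mice, which carry the Tg(TcraTcrb)1100Mjb T-cell receptor transgene on the C57BL/6 strain, so both groups share this single transgenic receptor and ages are not given. Activation lasted 48 h, with antibodies to CD3 and CD28 in the presence of IL-2, and was followed by 3 days of growth in IL-2, with 0.5 μM GSK or vehicle throughout. Each group had 3 samples, which the study takes from separate mice. The counted reads summed to between 18288447 and 18918811 in Veh samples and to between 19149909 and 19846720 in GSK samples, so every GSK sample was deeper than every Veh sample. In bulk RNA, fewer cells of a type and less RNA per cell cannot be told apart.

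The DNA upstream of the transcription starts is shown first, since GFI1 is known to bind sites built around the letters AATC and *Gfi1* is itself such a site. Sequences and coordinates are those of RefSeq on GRCm38.p6, with all 3 genes on the minus strand. In the 250 bases upstream of each start held in the RefSeq promoter table, AATC was looked for on either strand and is in capitals below, as AATC or as its reverse complement GATT. Where the window ran into an exon of a longer transcript of the same gene, the stretch outside that exon is shown, and around a core that lies inside such an exon 30 bases are shown. The *Gfi1* stretch chr5:107725806-107725954 ends at the base before the start, and its core stretch is chr5:107725989-107726018. The *Evi5* stretch is chr5:107869169-107869298 and its core stretch chr5:107869152-107869181, at a start inside the gene, since the outermost *Evi5* start was not searched, and the *Gfi1b* window is chr2:28621983-28622232.
Gfi1 upstream: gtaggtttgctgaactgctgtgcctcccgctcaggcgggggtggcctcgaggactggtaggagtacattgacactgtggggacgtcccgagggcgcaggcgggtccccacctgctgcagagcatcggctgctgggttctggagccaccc
Gfi1 core: ctcccgaaagcaaGATTcagtttgcacact
Evi5 upstream: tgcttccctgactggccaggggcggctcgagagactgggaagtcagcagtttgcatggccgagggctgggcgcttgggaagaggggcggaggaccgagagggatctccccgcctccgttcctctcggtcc
Evi5 core: ttcctctcggtccAATCccttcggcttctg
Gfi1b upstream: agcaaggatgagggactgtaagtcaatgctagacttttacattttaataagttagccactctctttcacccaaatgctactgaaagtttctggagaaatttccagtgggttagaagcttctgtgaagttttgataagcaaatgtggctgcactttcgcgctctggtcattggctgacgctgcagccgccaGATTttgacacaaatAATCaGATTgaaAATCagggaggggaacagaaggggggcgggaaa

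The *Gfi1* window held 1 core, 200 bases before the start, and the *Evi5* window held 1, 120 bases before the start. *Gfi1b* held 4, within 60 bases of its start. A further *Gfi1* start, with the window chr5:107724344-107724593 inside the gene, held none. Of 32851 promoter windows of the same length, 69.0% held at least 1 core and 7.04% at least 4, so a single core is common. The longer string TAAATCA, which extends the core, was in none of the windows of these genes and in 2.61% of all windows. These matches are letters in a window and not binding sites.

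*Gfi1* lies at chr5:107716655-107725805 (Entrez 14581, 8 merged exons) and *Evi5* at chr5:107744795-107875107 (Entrez 14020, 26 merged exons). Both are read towards lower coordinates, and 18990 bp separate the start of *Gfi1* from the 3′ end of *Evi5*. *Gfi1b* lies on another chromosome, at chr2:28609450-28621982 (Entrez 14582, 7 merged exons). In GENCODE M21, 3.17% of the exon bases of *Gfi1* are shared with A430072P03Rik on the opposite strand, and 4.69% of those of *Evi5* with Gm43592, also on the opposite strand. The library kit was stranded, but the sources do not state whether strand was used in counting, so these bases limit both values slightly. *Ube2d2b*, a gene inside the *Evi5* span on the other strand, had 2 reads in all 6 samples together.

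*Gfi1* had raw counts of 897, 811 and 812 in Veh samples 1 to 3 and of 2181, 2375 and 2022 in GSK samples 1 to 3. Scaled to the TMM-adjusted library total (CPM), these were 48.8, 43.5 and 42.7 in Veh and 114.5, 120.2 and 105.4 in GSK. The groups did not overlap, and the lowest GSK sample was 2.16 times the highest Veh sample. The means were 45.0 ± 3.32 CPM in Veh and 113.4 ± 7.45 CPM in GSK (SD, n = 3 each), a fitted log2 fold change of 1.33 with a standard error of 0.066. The spread was close to proportional to the level, with coefficients of variation of 7.38% in Veh and 6.57% in GSK.

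*Evi5* had far fewer reads, with counts of 36, 41 and 37 in Veh and of 104, 98 and 100 in GSK. These came to 1.96, 2.20 and 1.94 CPM in Veh and to 5.46, 4.96 and 5.21 CPM in GSK. Here too the groups were apart, with the lowest GSK sample at 2.26 times the highest Veh sample. Means were 2.03 ± 0.143 CPM in Veh and 5.21 ± 0.250 CPM in GSK (SD, n = 3 each). The log2 fold change of *Evi5* was 1.35 with a standard error of 0.19, against 0.066 for *Gfi1*. Of all genes tested, 23.7% had every GSK sample above every Veh sample, and 2.22% passed an adjusted p of 0.05 with a fold change over 1.5 in the direction of GSK. Both shares describe the contrast from which these genes were picked.

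*Gfi1b* had a single read in Veh sample 3, 2 reads in GSK sample 1 and none in the other samples. A count of 0 allows up to 3 reads, which is 0.152 to 0.163 CPM at these depths and covers counting error only. Neither group was above that limit, so no fold change was computed. The paralog was thus not detectable above the floor in either group, while *Gfi1* had between 811 and 2375 reads per sample.

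**Figure D1:**
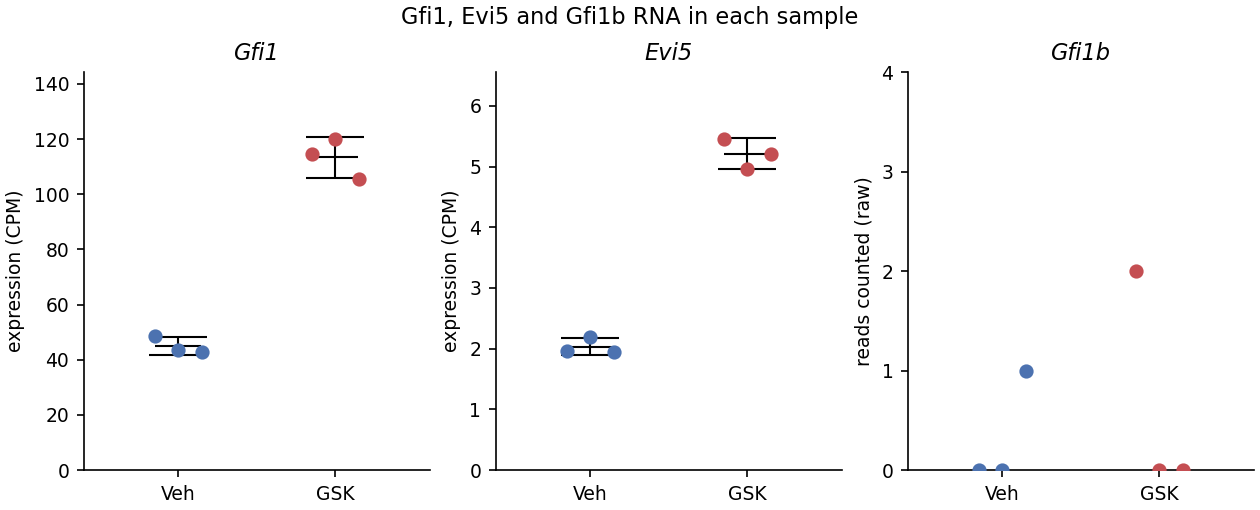
RNA of *Gfi1* and *Evi5* (CPM) and raw reads of *Gfi1b* in each of the 3 Veh (blue) and 3 GSK (red) samples, with horizontal bars for the mean and for 1 SD on either side. *Gfi1* ran from 42.7 to 48.8 CPM in Veh and from 105.4 to 120.2 in GSK, *Evi5* from 1.94 to 2.20 and from 4.96 to 5.46, and *Gfi1b* had at most 2 reads.

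To compare levels between genes, CPM were divided by exon length (merged exons of GENCODE M21). *Gfi1* stood at 14.1 ± 1.04 CPM per kb in Veh and 35.6 ± 2.34 in GSK (SD, n = 3), which placed it above 68.0% and 87.1% of the 11521 tested genes with a length. *Evi5* stood at 0.252 ± 0.0178 and 0.647 ± 0.0310 CPM per kb, above 5.27% and 12.2% of them. The order *Gfi1*, *Evi5*, *Gfi1b* held in every sample. Thus *Gfi1* was a well expressed gene in both groups and *Evi5* a weakly expressed one.

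Among the 385 tested genes annotated as C2H2 zinc finger factors in the deposited table, *Gfi1* ranked 33 by CPM per kb in Veh and 5 in GSK. The factors above it in GSK were *Ikzf1* (96.4 CPM per kb), *Maz* (89.7), *Ctcf* (46.3) and *Klf6* (42.6), and the next below was *Gtf3a* at 31.6. None of the other C2H2 factors tested had a larger log2 fold change, whereas 65 of all tested genes did. This ranking uses the values by which *Gfi1* was picked and is a description.

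The ratio of *Evi5* to *Gfi1* is given as a description, since both genes were picked with their difference between GSK and Veh known. Per 100 units of *Gfi1* (CPM per kb), *Evi5* was at 1.59, 2.00 and 1.80 in Veh samples 1 to 3 and at 1.89, 1.63 and 1.96 in GSK samples 1 to 3. The groups overlapped in this ratio. Within the groups the pair did not rank the samples alike, since *Gfi1* was highest in GSK sample 2, where *Evi5* was lowest. With *Evi5* counts of 36 to 41 in Veh and 98 to 104 in GSK, its order within a group cannot be told from counting error.

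The genes on either side of the pair were examined to see how far the difference extended along the chromosome. Of the 5 nearest protein-coding genes on each side, 8 were tested. By edgeR (quasi-likelihood, p adjusted after Benjamini and Hochberg over every gene tested), 2 were higher and 1 was lower in GSK, and none by over 1.5-fold. Over all genes tested, 16.6% passed the same adjusted p of 0.05 as higher and 15.5% as lower. The median log2 fold change of the 8 neighbours was 0.00086, against -0.0039 for all genes.

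The nearest gene beyond *Gfi1* is *Rpap2*, an RNA polymerase II phosphatase gene that lies 54802 bp beyond the *Gfi1* 3′ end. Its level was 29.7 ± 0.493 CPM in Veh and 29.1 ± 2.27 in GSK (SD, n = 3 each), giving a log2 fold change of -0.031 ± 0.075 (SE, edgeR adjusted p = 0.79). On the other side, 25401 bp beyond *Evi5*, the ribosomal protein gene *Rpl5* had a log2 fold change of -0.0025 ± 0.029 (SE, edgeR adjusted p = 0.95). Neither gene passed the test, and both standard errors are small beside the 1.33 and 1.35 of the pair. *Dipk1a*, whose span overlaps that of *Rpl5*, was at 0.0043 (edgeR adjusted p = 0.97), *Mtf2* at 0.040 and *Btbd8* at -0.089.

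The next gene beyond *Rpap2* was among the 3 neighbours that passed. *Glmn*, which encodes the cullin-RING ligase inhibitor glomulin and whose span touches that of *Rpap2*, rose from 16.6 ± 2.45 to 23.3 ± 1.16 CPM (SD, n = 3 each, log2 fold change 0.49 ± 0.10 SE, edgeR adjusted p = 0.0029). The trafficking gene *Tmed5* rose by 0.17 on the log2 scale (edgeR adjusted p = 0.014), and *Ccdc18* fell by 0.39 (edgeR adjusted p = 0.0063). *Tmed5* lost its call without Veh sample 3 or GSK sample 1. *1700028K03Rik* was too low to be tested and *Lpcat2b* has no row in the table.

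**Figure D2:**
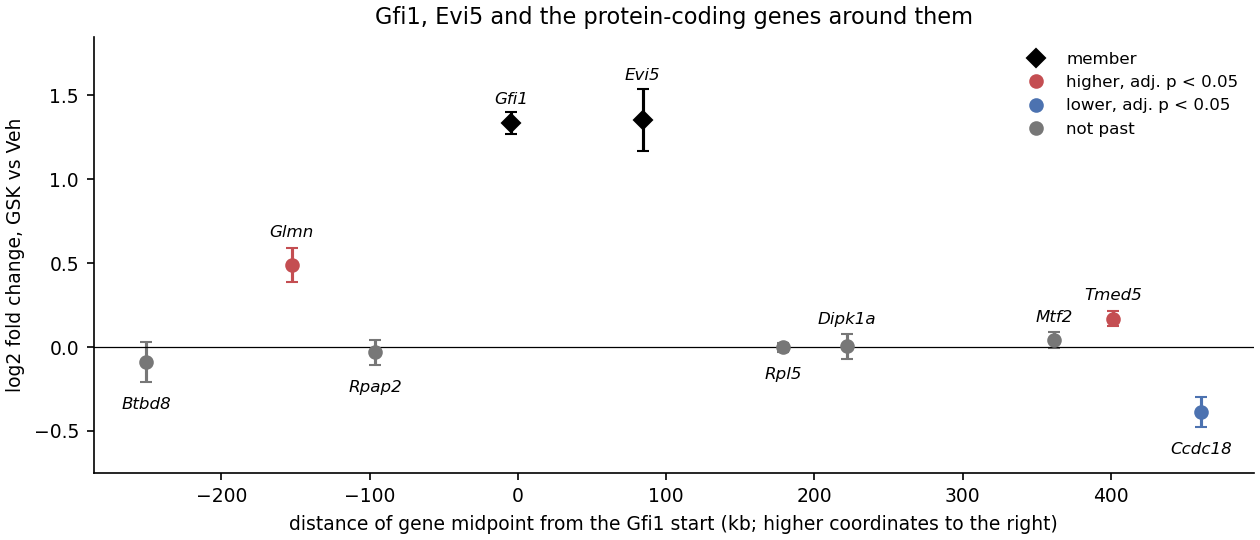
Log2 fold change (GSK against Veh, fitted by edgeR, with 1 standard error) of *Gfi1*, *Evi5* and the tested protein-coding genes around them, by the distance in kb of each gene's midpoint from the *Gfi1* start. The pair (diamonds) sits at 1.33 and 1.35, *Glmn* at 0.49, and the genes directly on either side, *Rpap2* and *Rpl5*, at -0.031 and -0.0025.

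Around *Gfi1b*, 6 of the 10 nearest protein-coding genes were tested. *Gtf3c5*, a subunit gene of transcription factor IIIC, rose by 0.29 (edgeR adjusted p = 0.0038), the RNA helicase gene *Ddx31* by 0.49 (edgeR adjusted p = 0.0051), and *Tsc1*, a negative regulator of mTORC1, fell by 0.24 (edgeR adjusted p = 0.034) on the log2 scale. *Mrps2* (0.23), *Ralgds* (-0.027) and *Gtf3c4* (0.041) did not pass. *Mrps2* did pass without the filter on low counts (edgeR adjusted p = 0.037), without Veh sample 2 (0.032) and without GSK sample 2 (0.0056). Over all genes tested, 16.6% passed as higher and 15.5% as lower. *Spaca9* and *Ak8* were too low to be tested, and *Gbgt1* and *Cel* have no row in the table. *Tsc1* lost its call when any single sample other than GSK sample 2 was left out, which left 1 lower neighbour over both loci in place of 2.

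Listed partners of GFI1, among them subunits of LSD1 complexes, were next compared. *Kdm1a*, which encodes LSD1 itself, had 90.2, 89.1 and 99.1 CPM in the Veh samples and 86.4, 84.0 and 90.9 in the GSK samples. The groups overlapped, and its log2 fold change of -0.092 ± 0.055 (SE) did not pass (edgeR adjusted p = 0.22). Of 20 listed partner genes 19 were tested, of which 2 were higher and 8 lower in GSK, beside the 16.6% and 15.5% of all genes, with a median log2 fold change of -0.23. Leaving out Veh sample 3 or GSK sample 1 reduced the 8 to 5 by the loss of *Rcor3*, *Hmg20b* and *Pias3*, which also fell short in DESeq2. *Rcor3* and *Hmg20b* also fell short without Veh sample 2, *Hmg20b* without GSK sample 3, and *Pias3* without Veh sample 1 or GSK sample 2 and with thinned counts.

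The 2 higher partners were the arginine methyltransferase gene *Prmt1* and the deacetylase gene *Hdac2*. *Prmt1* had 124.7, 139.3 and 124.7 CPM in the Veh samples and 170.6, 161.8 and 197.5 in the GSK samples, a log2 fold change of 0.45 (edgeR adjusted p = 0.0014). *Hdac2* rose by 0.26 (edgeR adjusted p = 0.0052). *Hdac1*, the most abundant partner in CPM, stood at 0.061 (edgeR adjusted p = 0.28).

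*Cbfa2t3*, which encodes the ETO family corepressor ETO2, was the partner with the largest drop and the one past 1.5-fold, as were 4.09% of all genes in that direction. It had 7.62, 7.13 and 8.88 CPM in the Veh samples and 5.04, 4.30 and 3.55 in the GSK samples (log2 fold change -0.87 ± 0.17 SE, edgeR adjusted p = 0.0018). The other 7 fell by 0.23 to 0.30 on the log2 scale. Those described here were the CoREST gene *Rcor3*, the HMG-box gene *Hmg20b* and the zinc finger genes *Zmym2* and *Zmym3*, all of LSD1 complexes, the H3K9 methyltransferase gene *Ehmt2* (G9a), and *Pias3*, which encodes a SUMO ligase. *Rcor1*, which encodes the main CoREST scaffold, was at -0.15 (edgeR adjusted p = 0.079). With the replicate block, *Rcor1* did pass as lower (edgeR adjusted p = 0.045).

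Few other factors with a SNAG domain had enough reads. Of 10 listed genes, 3 were tested, of which none was higher and 2 were lower, beside 16.6% and 15.5% of all genes. *Snai3*, of the SNAIL family, had 19.6, 17.8 and 18.7 CPM in the Veh samples and 12.2, 15.6 and 16.4 in the GSK samples (log2 fold change -0.34, edgeR adjusted p = 0.029). *Scrt1*, a repressor gene known from neurons, had 2.56, 1.77 and 3.15 CPM in the Veh samples and 0.472, 1.62 and 1.09 in the GSK samples (log2 fold change -1.22 ± 0.38 SE, edgeR adjusted p = 0.027). The third, *Snai1*, was at 0.33 (edgeR adjusted p = 0.55). At an unadjusted p under 0.05 and in DESeq2 the count of higher genes was also 0. Both calls were lost without Veh sample 1, Veh sample 3 or GSK sample 1, and that of *Scrt1* also without GSK sample 3. In every sample *Gfi1* had more CPM than any of the 10.

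Genes described elsewhere as repressed or bound by GFI1 were listed from blood and lymphoid cells. Of 21 genes 11 were tested, of which 6 were higher in GSK, where 16.6% of all genes were, with a median log2 fold change of 0.21. The count of lower genes was 0 in edgeR, 0 at its unadjusted p under 0.05 and 0 in DESeq2. Without Veh sample 1 or GSK sample 1, 3 were higher, and without GSK sample 2, *Il7r* was lower (edgeR adjusted p = 0.022).

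*Id2*, an inhibitor of E-protein transcription factors, had 199.2, 217.5 and 211.2 CPM in the Veh samples and 304.1, 301.8 and 328.4 in the GSK samples (log2 fold change 0.57 ± 0.048 SE, edgeR adjusted p = 5.1e-06). *Csf1*, the macrophage colony-stimulating factor gene, had 5.22, 6.87 and 6.99 CPM in the Veh samples and 13.8, 14.7 and 11.7 in the GSK samples (log2 fold change 1.07 ± 0.14 SE, edgeR adjusted p = 1.5e-04). *Bax*, a pro-apoptotic gene, had 94.3, 104.9 and 100.8 CPM in the Veh samples and 134.9, 131.9 and 144.4 in the GSK samples (log2 fold change 0.45, edgeR adjusted p = 6.8e-05). None of these 3 overlapped between groups, and neither did the other higher genes of this list, described below. Such a lack of overlap, with GSK on the higher side, was found for 23.7% of all genes tested.

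The zinc finger gene *Egr2* rose by 0.92 ± 0.31 (SE, edgeR adjusted p = 0.039), the cell cycle inhibitor gene *Cdkn1a* by 0.21 (edgeR adjusted p = 0.014) and *Irf8*, an interferon regulatory factor gene, by 0.19 (edgeR adjusted p = 0.025) on the log2 scale. These 3 calls were each lost without Veh sample 1 or GSK sample 1. That of *Egr2* was also lost without Veh sample 2 or GSK sample 3 and in DESeq2 (adjusted p = 0.069). That of *Irf8* was also lost without Veh sample 3 or GSK sample 3. With the replicate number as a block, *Egr2* and *Irf8* did not pass. *Egr1* had 4.90, 5.20 and 11.1 CPM in the Veh samples and 19.5, 10.9 and 23.0 in the GSK samples. Its groups overlapped, and its log2 fold change of 1.33 ± 0.46 (SE) did not pass (edgeR adjusted p = 0.093). *Egr1* did pass in DESeq2 (adjusted p = 0.028), without Veh sample 3 (edgeR adjusted p = 0.024) and with the replicate block (edgeR adjusted p = 9.1e-04). *Il7r*, the interleukin-7 receptor gene, was at -0.098 (edgeR adjusted p = 0.63), *Id3* at -0.15 and *Foxo1* at -0.065, and none of them passed. Myeloid and stem cell genes on this list, such as *Spi1*, *Cebpa*, *Hoxa9* and *Meis1*, were too low to be tested.

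Genes tied to EVI5 were also compared, and all 11 were tested. In edgeR 0 were higher and 3 lower, beside 16.6% and 15.5% of all genes, with 1 higher at an unadjusted p under 0.05 and 0 in DESeq2. *Evi5l*, the paralog of *Evi5*, moved the other way from it, with 9.79, 8.53 and 11.5 CPM in the Veh samples and 5.77, 6.33 and 5.53 in the GSK samples (log2 fold change -0.76 ± 0.14 SE, edgeR adjusted p = 0.0017). *Rab11fip4*, a RAB11 effector gene, had 87.0, 66.7 and 76.5 CPM in the Veh samples and 49.5, 56.2 and 48.7 in the GSK samples (log2 fold change -0.58, edgeR adjusted p = 0.0015).

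*Fzr1*, which encodes the CDH1 activator of the anaphase-promoting complex, fell by 0.22 on the log2 scale (edgeR adjusted p = 0.0043). *Rab11a* and *Rab11b*, the GTPase genes, were at 0.15 (edgeR adjusted p = 0.056) and 0.060 and did not pass, although *Rab11a* did without Veh sample 2 (adjusted p = 0.028). *Fbxo5*, which encodes EMI1, was at -0.010 (edgeR adjusted p = 0.89), and *Cdc20*, the most abundant gene of the list, at 0.089 (edgeR adjusted p = 0.16). The median of the list was -0.037.

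**Figure D3:**
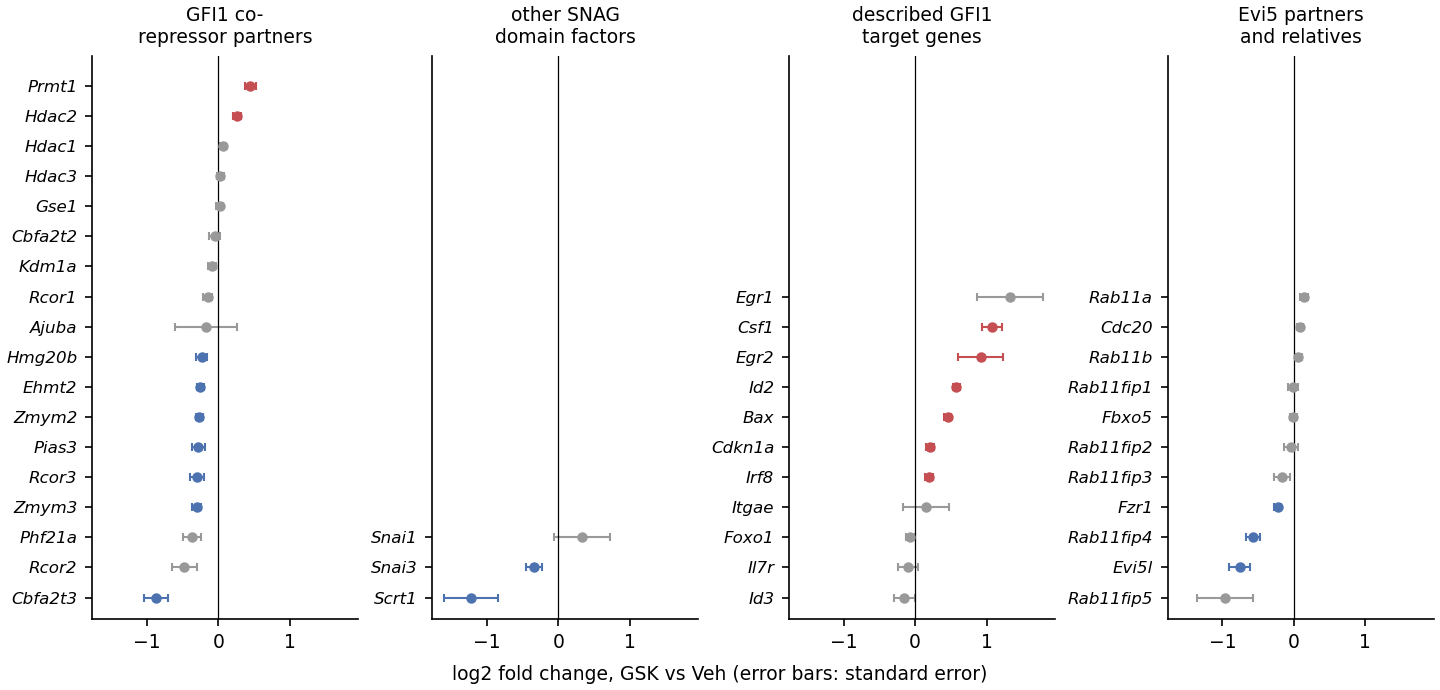
Log2 fold change (GSK against Veh, fitted by edgeR, with 1 standard error) of the tested genes of the 4 lists, without 1 lower partner gene that is not reported, in red where higher and blue where lower at an adjusted p under 0.05 and in grey otherwise. The partner genes passed 2 times as higher and 8 times as lower, the SNAG genes 0 and 2 times, the described GFI1 targets 6 and 0 times, and the genes tied to EVI5 0 and 3 times.

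The genes whose profile over the 6 samples was closest to that of each of the pair were found by the root mean square difference of log2 CPM after each gene's mean was subtracted. Apart from *Evi5*, for *Gfi1* these were *Gpr155* (0.121), *Klrc1* (0.121), which encodes the inhibitory receptor NKG2A, *Tjp1* (0.124), which encodes the junction protein ZO-1, *Pdlim5* (0.141) and *B4galt4* (0.150). *Evi5* itself was at 0.123 from *Gfi1*, at rank 3 of all tested genes. Seen from *Evi5*, the closest were *Themis2* (0.0882), the cell cycle inhibitor gene *Cdkn2b* (0.104), the cytokine gene *Tnf* (0.104), *Gadd45g* (0.111) and *Gpr155* (0.112), with *Gfi1* at rank 9. All these genes share the difference between GSK and Veh, and the measure takes in both the size of that difference and the spread of the samples within each group. *Gfi1* and *Evi5* were picked with that difference known, so their ranks beside each other are a description.

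**Figure D4:**
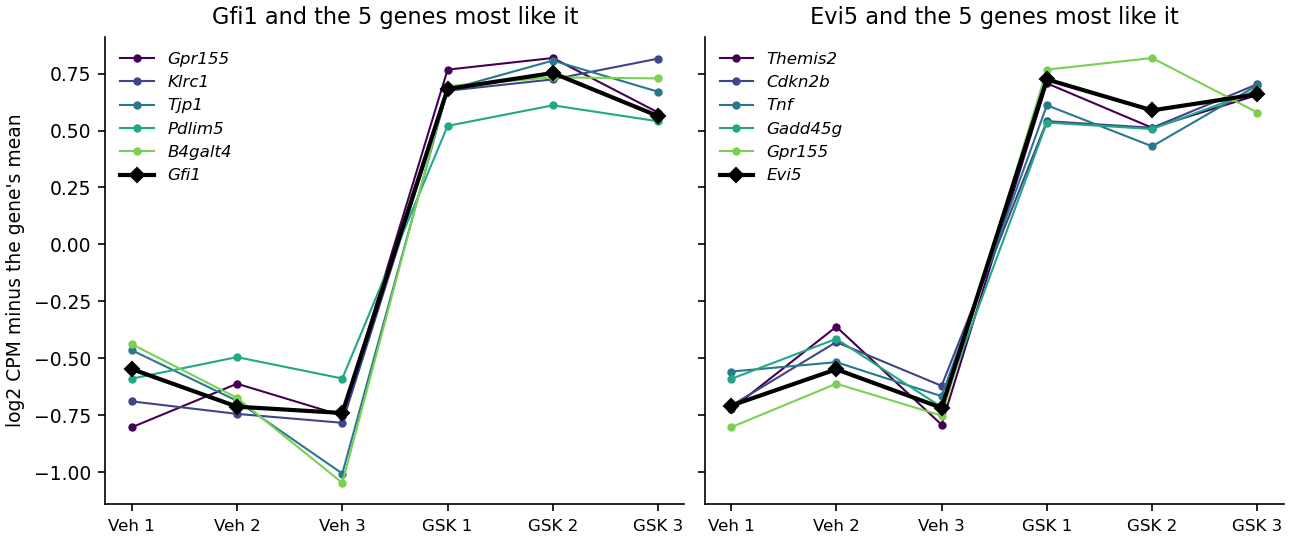
Log2 CPM after subtraction of each gene's mean, in the 3 Veh and 3 GSK samples, for *Gfi1* (left) and *Evi5* (right) in black with the 5 genes closest to each in colour. Lines join the values of a gene and imply no order of the samples. All genes shown lie below 0 in the Veh samples and above 0 in the GSK samples.

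Markers of the labelled cell type were present, with *Cd3d*, *Cd3e*, *Cd3g*, *Cd8a*, *Cd8b1* and *Cd247* summing to between 2189 and 2298 CPM in Veh and between 2014 and 2151 in GSK. *Cd3d*, *Cd3e* and *Cd3g* passed as lower, as did 15.5% of all genes tested. The others did not pass, with log2 fold changes of 0.069 for *Cd8a*, 0.11 for *Cd247* and -0.11 for *Cd8b1*. The neutrophil and monocyte markers, whose cells also use *Gfi1*, summed to between 3.05 and 4.73 CPM in Veh and to between 1.46 and 2.94 in GSK. Of these 11 markers 6 had a row in the table, none of the 2 tested passed in edgeR (1 lower at an unadjusted p under 0.05), and *Mpo* had at most 1 read per sample. The 11 erythroid and megakaryocyte markers, whose cells use *Gfi1b*, summed to 8.62 to 9.87 CPM in Veh and 6.62 to 8.45 in GSK. *Gata1* made up most of this sum, at 6.09 CPM in Veh and 6.07 in GSK. Of the 11, 2 were tested and 1 passed as lower, as did 15.5% of all genes tested. It was *Itga2b* (log2 fold change -1.08, edgeR adjusted p = 0.020).

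The 3 NK cell markers summed to between 3.42 and 4.99 CPM in Veh and to between 7.61 and 8.71 in GSK, higher in GSK as *Gfi1* was. Of these 3, 2 were tested and 1 passed as higher, as did 16.6% of all genes tested. *Klri2* rose (log2 fold change 1.38, edgeR adjusted p = 9.2e-04), and *Klrb1c* was at 0.54 (edgeR adjusted p = 0.13). *Ncr1*, a defining NK receptor gene, had 1 read in GSK sample 1 and none elsewhere, and was too low to be tested. B cell markers summed to between 5.78 and 7.996 CPM in Veh and between 5.72 and 6.63 in GSK, and CD4 T cell markers to between 43.1 and 52.9 and between 39.2 and 44.8, with no gene past edgeR's test and 1, the B cell gene *Cd79b*, lower at an unadjusted p under 0.05. The part of these markers in the values of *Gfi1* and *Evi5* was not tested.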

How the data were processed

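RNA of 3 GSK and 3 Veh samples was sequenced after poly(A) selection with a stranded kit. The authors trimmed the reads with Trimmomatic, mapped them to GRCm38 with hisat2 (version 2.1.0) and assigned them to genes with HTSeq-count (version 0.11.2), and the deposited values are these raw counts for 16281 genes, not normalized. The annotation release and strand setting of the counting are not given in the sources used here. FPKM (Cufflinks, version 2.2.1) and the authors' own DESeq2 calls (version 1.22.2) were not used. Groups were taken from the sample titles.

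From the counts, GSK was compared with Veh by the robust quasi-likelihood test of edgeR 4.0.16 under R 4.3.3, after filterByExpr and TMM scaling, with p-values of all 11698 tested genes adjusted after Benjamini and Hochberg. Genes passed where the adjusted p was below 0.05, and those also past 1.5-fold were counted apart. Log2 CPM for the likeness of profiles used a prior count of 2. Exon lengths came from GENCODE M21 by Entrez identifier, for 15787 genes, and positions and upstream sequences from RefSeq on GRCm38.p6. Standard errors were derived from the test statistic. The steps were tested on simulated data.

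The genes, lists and tests were chosen with earlier results of these data known. Genes named were the members, the neighbours, list genes that passed (except 1 partner gene that is not reported here and stays in the counts), the highest gene of each list, *Kdm1a* and the 5 genes closest to *Gfi1* and to *Evi5*. *Rcor1*, *Egr1*, *Il7r*, *Id3*, *Foxo1*, *Rab11a*, *Rab11b*, *Fbxo5*, *Snai1*, the untested list genes and the C2H2 factors were named after their values were seen. No pair of replicates agreed within sampling noise. The alternatives were DESeq2 (version 1.42.0), RLE size factors, no filter on low counts, the replicate number as a block, other prior counts, leaving out each sample and, chosen after seeing the data, counts thinned to the smallest total. P-values measure the spread between 3 samples per group, and the total counts of 18288447 to 19846720 per sample leave genes of a few reads untested.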

Additional observations from a re-analysis of the deposited data

How the results depend on the processing

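The log2 fold change of *Gfi1* lay between 1.29 and 1.40 and that of *Evi5* between 1.32 and 1.41 when each sample was left out in turn, and a prior count of 5 gave 1.25 for *Evi5*. Over all genes, 260 higher and 479 lower calls became 224 to 291 and 403 to 547. Leaving out a sample gave 2 to 2 higher and 5 to 8 lower partner genes, 0 to 0 and 0 to 2 SNAG genes, 3 to 6 and 0 to 1 described targets, 0 to 1 and 3 to 3 genes tied to EVI5, and 3 to 5 and 1 to 2 neighbours of both loci (4 and 2 with all samples). Thinned counts, an alternative chosen after seeing the data, gave 1 higher gene tied to EVI5 (*Rab11a*). The causes were not tested.

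After each group's mean was subtracted, Veh and GSK samples with the same number correlated at -0.052, -0.081 and 0.16 across genes, and replicate number 3 was closest to its own number while 1 and 2 were not. Whether same-numbered samples came from one mouse is not stated and remains unknown. With the replicate block, 253 genes were called higher and 447 lower, 10 partner genes and 1 neighbour were lower, and 5 described targets were higher: *Egr1* passed (adjusted p = 9.1e-04), while *Egr2* (0.052) and *Irf8* (0.059) did not.

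Of the 58 tested genes of the lists and the neighbours, 27 passed in either direction, beside 16.6% of all genes higher and 15.5% lower. Of these 27, 11 lost the threshold under at least 1 alternative, among them *Egr2*, *Irf8*, *Snai3*, *Scrt1*, *Pias3* and *Tsc1*. Another 6 genes passed under an alternative alone, and 0 reversed. With 114 Veh reads in all, *Evi5* is the less precise of the pair, and *Gfi1b* is below what this depth can show.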

Other observations

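Few zinc finger factors of the family of *Gfi1*, which was itself picked for its higher level, were higher in GSK. Of the 384 other tested genes that the deposited table annotates as C2H2 zinc finger factors, 8 (2.08%) were higher and 84 (21.9%) lower in GSK in edgeR's test at an adjusted p of 0.05, with a median log2 fold change of -0.14. Over all genes tested, 16.6% were higher and 15.5% lower. The group was chosen after its values were seen and was not compared with other groups by a test. The higher genes with the smallest p were *Zfp983* (log2 fold change 0.52, standard error 0.077), *Zfp91* (0.19), *Ikzf4* (0.32), an Ikaros family gene, and *Klf16* (0.23). The lower genes with the smallest p were *Zkscan17*, which fell by 0.49, *Klf13* by 0.46, *Zfp260* by 0.48 and *Zfp607b*, which went from 8.80 ± 0.118 to 3.46 ± 1.01 CPM (SD, n = 3 each). *Klf2*, which encodes a factor of T-cell quiescence and trafficking, fell by 1.05 on the log2 scale (standard error 0.16, edgeR adjusted p = 0.0030) and was above *Gfi1* by CPM per kb in Veh and below it in GSK.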
